A study of Mus musculus with 6 samples.

Results

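The genes described here are 10 members of bone morphogenetic protein (BMP) signalling and its best known transcriptional output, the inhibitor of DNA binding (ID) family. They are the ligand gene Bmp4, the receptor genes Bmpr1a and Bmpr2, the SMAD genes Smad1, Smad5 and Smad6, and Id1, Id2, Id3 and Id4. They were chosen by gene symbol, with earlier results of these data known. All 10 are among the 16880 genes of the deposited table, and all 10 passed the filter on low counts that left 11983 genes to test. RNA was sequenced from ATDC5, a chondrogenic cell line of the mouse, after stimulation with 10 ng/mL of the inflammatory cytokine IL-1β alone, or with the same dose of IL-1β together with 10 μM NP-G2-044, a small-molecule inhibitor of the actin-bundling protein FSCN1, with 3 libraries per group. Both groups therefore carry IL-1β, cells without it were not analysed here, and every value below sets the inhibitor on top of IL-1β against IL-1β alone. The study's methods give a treatment of 24 h and speak of chondrocytes where the labels name the cell line, and the treatment label of the inhibitor group reads NP-G2-047 where its titles read NP-G2-044.

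BMPs are secreted dimers that bring together type I and type II serine/threonine kinase receptors at the cell surface. The type II receptor activates the type I receptor, which phosphorylates SMAD1, SMAD5 and SMAD9, and these enter the nucleus with SMAD4. ID genes are among their most direct targets. ID proteins have a helix-loop-helix domain but no DNA-binding region, so they hold E proteins in pairs that cannot bind DNA. Another target, SMAD6, feeds back to inhibit the same receptors and SMADs. In cartilage the pathway is known for driving chondrocyte formation and, later, hypertrophy.

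The libraries held 16615824 to 16878164 reads in the IL-1β group and 17529844 to 17735860 in the inhibitor group, and no library stood apart from its group. The cartilage markers were low. Col2a1 lay between 0.20 and 0.24 TPM with IL-1β, and Matn1 had no read in any library. TPM is a level corrected for transcript length and scaled to the same total in every library. Of the 5 chondrocyte markers tested, 1 was higher and 3 lower past an edgeR adjusted p of 0.05 (40.2% and 39.8% of all genes). Sox9 rose from 6.44 ± 0.675 to 11.4 ± 0.0569 TPM (SD, n = 3 each). Sox5 fell from 10.3 ± 0.0839 to 2.27 ± 0.245 TPM and Col11a2 from 5.01 ± 0.229 to 3.43 ± 0.184 TPM. Col2a1 fell from 0.217 ± 0.0208 to 0.04 ± 0.02 TPM, with 32 reads against 6. The fibroblast list was uneven. With IL-1β, Vim stood at 2208 ± 24.1 and Col1a2 at 1098 ± 27.0 TPM. Col1a1 was at only 8.76 ± 0.191 and Col3a1 at 7.45 ± 0.123 TPM, and Thy1 had no read in any library. Among markers of other cells, the summed level of the macrophage list was 23.8 to 24.6 TPM per library with IL-1β and 128.6 to 140.0 TPM with the inhibitor. Cd68 alone carried the difference, at 12.4 ± 1.68 and 129.9 ± 5.48 TPM, while Cd14, the other gene of that list with enough reads to test, fell from 11.4 ± 1.62 to 4.89 ± 0.341 TPM. The defining leukocyte gene Ptprc had no read in any of the 6 libraries. The other list sums went from 21.9 to 22.7 TPM down to 17.1 to 17.6 TPM for chondrocytes, from 3323 to 3417 TPM down to 1660.0 to 1721 TPM for fibroblasts (nearly all of it Vim and Col1a2, while Pdgfra rose from 2.36 ± 0.286 to 8.69 ± 0.298 TPM), and from 6.95 to 7.5 TPM down to 3.89 to 3.94 TPM for osteoblasts, and that for endothelial cells was at most 0.55 TPM in a library. Of the genes listed, 5 of 12, 6 of 7, 2 of 5 and 0 of 5 could be tested, and 2 of 6 for macrophages. The part of these shifts in the results below was not tested.

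With the inhibitor, 9 of the 10 genes were lower and only Smad1 was higher. The largest falls were those of Bmp4, Id4, Id3, Smad6 and Id2, from 6.21-fold to 2.41-fold. Each of the 10 passed an adjusted p of 0.05 (quasi-likelihood test of edgeR, adjusted by Benjamini-Hochberg over every gene tested). That threshold was passed by 80% of all genes tested, 40.2% toward higher and 39.8% toward lower levels, so passing it does not set the members apart. A stricter call also asked for a change of more than 2-fold. It was met by 5 members, all lower, where 16.6% of all genes met it, 6.48% higher and 10.1% lower. The IL-1β and inhibitor libraries did not overlap in TPM for any of the 10 members, as for 79.4% of all genes tested. The median log2 fold change of the members was −0.99, against 0.00185 over all genes tested. Since the members were chosen with earlier results of these data known, this difference describes them and is not a test. In bulk RNA, less RNA per cell and fewer cells of a kind that makes it cannot be told apart.

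The genes lie apart in the mouse genome (GRCm38). On the plus strand are Id1 (chr2:152736251-152737410), Id3 (chr4:136143497-136145755), Id4 (chr13:48261228-48266026), Smad5 (chr13:56703010-56742377) and Bmpr2 (chr1:59763400-59879014). On the minus strand are Id2 (chr12:25093799-25097140), Smad1 (chr8:79338395-79399518), Smad6 (chr9:63953076-64022059), Bmp4 (chr14:46383520-46390669) and Bmpr1a (chr14:34410734-34503341). Values are per gene, and isoforms were not told apart.

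**Figure D1:**
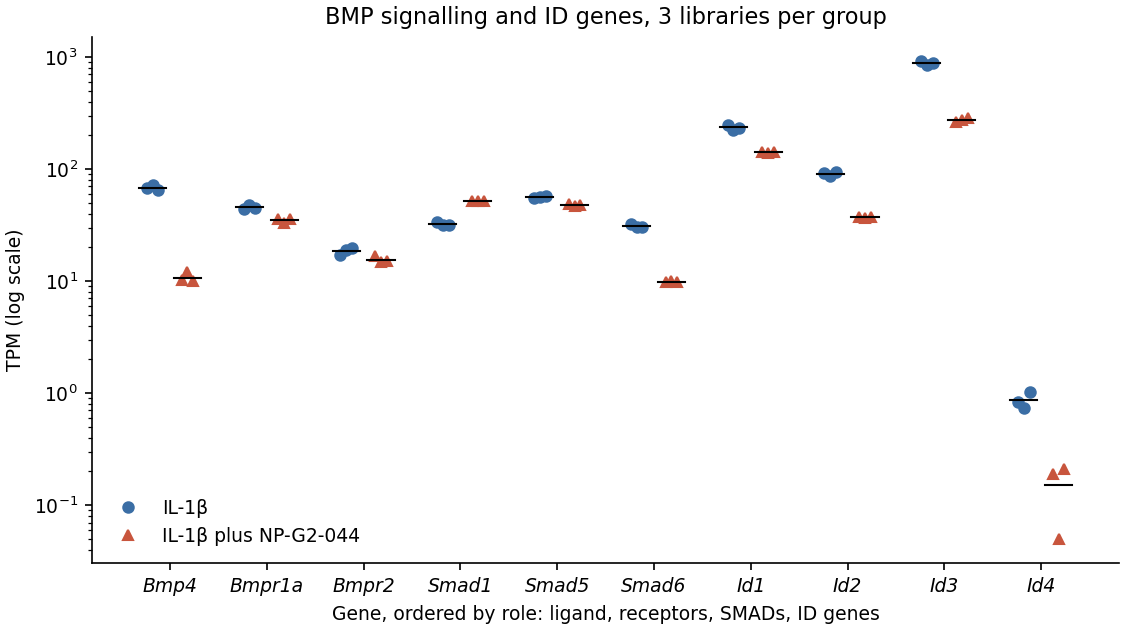
Level of each gene in TPM (log scale) in the 3 libraries with IL-1β (circles) and the 3 with IL-1β plus NP-G2-044 (triangles), with black bars at the group means. All triangles lie above all circles for Smad1 and below them for the other 9 genes, and the gap is narrowest for Bmpr2, at 0.21 TPM.

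**Figure D2:**
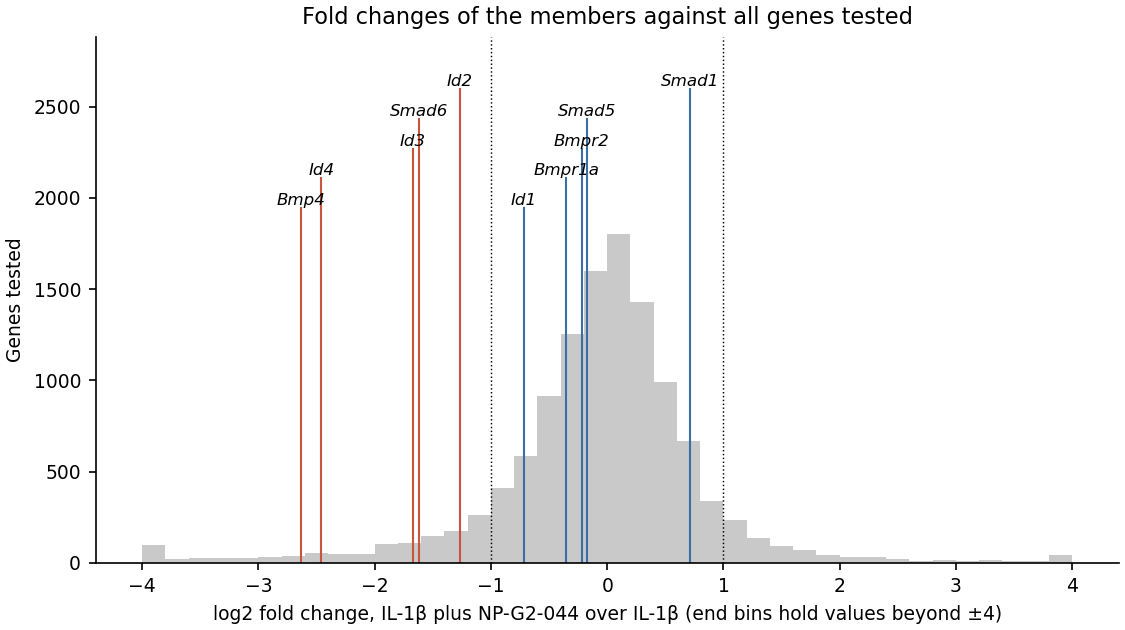
Number of tested genes by log2 fold change, inhibitor over IL-1β alone (grey bars, 11983 genes), with a line at each of the 10 genes and dotted lines at a 2-fold change. Bmp4, Id4, Id3, Smad6 and Id2 lie beyond the lower dotted line, and the 5 others lie between the lines.

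Bmp4 encodes the BMP4 ligand and was the only ligand gene listed that had enough reads to test. It stood at 67.1, 71.35 and 65.5 TPM in the IL-1β libraries and at 10.1, 11.9 and 10.1 TPM in the libraries with the inhibitor. The groups were 53.6 TPM apart at their nearest, while the libraries of a group spread by an SD of 3.01 and 1.05 TPM. On the log2 scale the change was −2.63 (standard error, SE, 0.0583, edgeR adjusted p = 1.01e-40), and 2.17% of all tested genes fell as far or further. Of its exonic bases, 89 overlap exons of a gene on the opposite strand. The sources used here do not say whether reads were counted by strand. Of the other ligands searched for, 9 are in the table, none passed the filter, 1 had no read at all, and the most reads any of them had over all 6 libraries was 11. Those 9 genes together had 9 reads with IL-1β and 20 with the inhibitor, of which Bmp6 had 1 and 10.

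Bmpr1a encodes a type I receptor for BMP2 and BMP4. It was at 43.6, 48.15 and 45.1 TPM with IL-1β and at 35.8, 33.2 and 35.6 TPM with the inhibitor. The 3 inhibitor libraries were the lowest, and the log2 fold change was −0.35 (SE 0.0349, edgeR adjusted p = 4.94e-13). Bmpr2 encodes the type II receptor that is specific to BMPs. Its libraries read 17.1, 18.9 and 19.6 TPM with IL-1β against 16.9, 14.8 and 15.0 TPM with the inhibitor. Replicate 1 of each group nearly met, and the log2 fold change of −0.22 (SE 0.0438, edgeR adjusted p = 8.83e-05) was a decrease to 0.86 of the IL-1β level. Both receptor changes were much smaller than that of the ligand, and 28.3% and 35.4% of all tested genes fell as far or further. Exons of Bmpr1a overlap those of an antisense gene over 290 bases.

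Smad1 and Smad5 encode the signal-carrying SMADs of the pathway, and the genes moved in opposite directions. Smad1 was at 33.9, 31.45 and 31.6 TPM with IL-1β and at 51.4, 51.6 and 52.3 TPM with the inhibitor, a log2 fold change of 0.71 (SE 0.0411, edgeR adjusted p = 4.83e-22). It was the single member that rose, by 1.64-fold, and every inhibitor library was above every IL-1β library. Smad5 was at 54.7, 56.0 and 57.9 TPM against 48.8, 46.4 and 47.75 TPM, a log2 fold change of −0.17 (SE 0.0298, edgeR adjusted p = 8.65e-07). Smad5 was thus the more abundant of the pair with IL-1β, and Smad1 with the inhibitor. All estimated counts of both genes were whole numbers, as were those of 9 of the 10 members in every library, the exception being Id3 in 3 libraries. Exons of Smad5 overlap those of another gene on the same strand over 100 bases.

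Including Smad9, the third gene of this class, the summed level of the receptor-activated SMADs of the BMP branch was 109.5 ± 1.15 TPM with IL-1β and 116.2 ± 1.87 TPM with the inhibitor (SD, n = 3 each). Within that sum the share of Smad1 went from 29.5% ± 1.25 to 44.5% ± 0.728. The share of Smad5 went from 51.35% ± 1.29 to 41.0% ± 0.469, and that of Smad9 from 19.1% ± 0.0833 to 14.5% ± 0.329. The groups did not overlap for any of the 3 shares. The exact permutation test gave a two-sided p = 0.1 for each of 9 shares compared here and below, before and after Benjamini-Hochberg adjustment, which is the smallest that 3 libraries against 3 allow.

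Smad6 encodes the inhibitory SMAD that acts on BMP receptors by preference. It was at 32.4, 30.3 and 30.6 TPM with IL-1β and at 9.79, 10.1 and 9.76 TPM with the inhibitor, a log2 fold change of −1.62 (SE 0.0574, edgeR adjusted p = 2.19e-31). The inhibitor libraries lay within 0.32 TPM of each other and more than 20 TPM below the nearest IL-1β library. Smad7, the inhibitory SMAD shared with the TGF-β branch, was at 9.55 ± 0.0361 and 8.63 ± 0.774 TPM (SD, n = 3 each). The change was −0.19 on the log2 scale (SE 0.07, edgeR adjusted p = 0.0106) and did not pass without replicate 2 of the inhibitor group (adjusted p = 0.132) or with limma on log2(TPM + 0.1) and log2(TPM + 1) (0.0909 and 0.0893). With IL-1β, Smad6 and Smad1 were at overlapping levels.

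The ID genes were the most and the least abundant of the members. Id3 alone stood at 926.6, 852.6 and 882.0 TPM with IL-1β and at 262.9, 271.55 and 287.8 TPM with the inhibitor, a log2 fold change of −1.67 (SE 0.0386, edgeR adjusted p = 9.99e-23). Id1 was at 249.4, 225.0 and 233.5 TPM against 140.4, 139.8 and 142.2 TPM, a log2 fold change of −0.72 (SE 0.0416, edgeR adjusted p = 3.78e-21). Id1 was the only ID gene whose fall stayed within 2-fold, at 1.64-fold. Id2 was at 92.7, 86.9 and 93.8 TPM against 37.35, 36.4 and 37.7 TPM, a log2 fold change of −1.27 (SE 0.0522, edgeR adjusted p = 2.09e-28). None of these 3 genes had a library of one group within the range of the other.

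Id4 was close to the limit of detection. Its reads numbered 33, 28 and 40 with IL-1β and 8, 2 and 9 with the inhibitor, or 0.86 ± 0.147 and 0.15 ± 0.0872 TPM (SD, n = 3 each). The ratio of pooled reads, IL-1β over inhibitor and scaled by the read totals, was 5.59, with an exact 95% binomial interval (Clopper-Pearson) of 3.4 to 9.68 that covers counting error only. The log2 fold change was −2.46 (SE 0.32, edgeR adjusted p = 1.18e-09). Leaving out each library gave −2.79 to −2.04, and on the log2(TPM + 1) scale, which shrinks low levels, the fall was −0.69. Its exons overlap those of 2 non-coding genes on the opposite strand, over 82 and 171 bases.

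Summed over the 4 genes, the ID level lay between 1165 and 1270.0 TPM in the IL-1β libraries and between 440.9 and 467.9 TPM in the inhibitor libraries, with means of 1215 and 452.2 TPM. Because the genes fell by different amounts, the make-up of the family differed between the groups. Id3 made up 73.0% ± 0.149 of the sum with IL-1β and 60.6% ± 0.939 with the inhibitor, while Id1 made up 19.4% ± 0.198 and 31.15% ± 0.733. The share of Id1 was thus 11.7 percentage points higher although its level was lower. Id2 held 7.5% ± 0.227 and 8.22% ± 0.222, and Id4 less than 0.1% in every library. The order Id3, Id1, Id2, Id4 was the same in all 6 libraries.

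**Figure D3:**
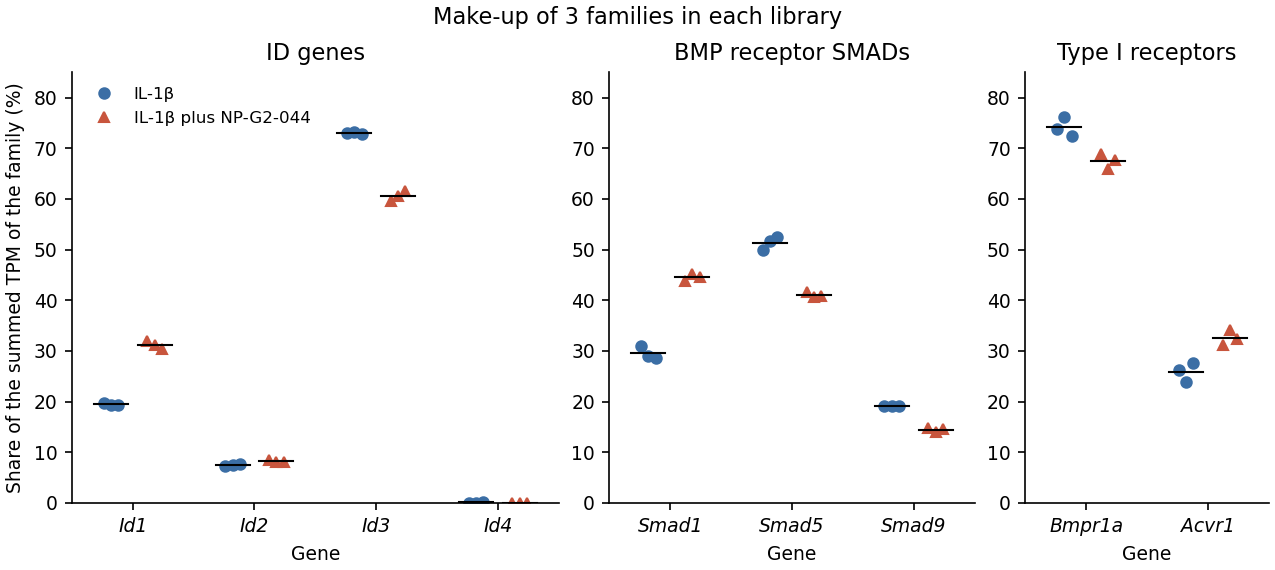
Share of each gene in the summed TPM of its family (%), for the ID genes (left), the BMP receptor-activated SMADs (middle) and the type I receptors (right), in 3 libraries with IL-1β (circles) and 3 with IL-1β plus NP-G2-044 (triangles), with black bars at the means. Id1 rises from 19.4% to 31.15% of the ID sum and Smad1 from 29.5% to 44.5% of the SMAD sum. Bmpr1a goes from 74.1% to 67.5% of the type I receptor sum, which here holds Bmpr1a and Acvr1 alone.

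The promoters of the ID genes past 2-fold and of Smad6 are shown because these genes fell together. The 250 bases before the RefSeq start (GRCm38.p6) were searched on both strands for GGCGCC, a GC-rich element that SMAD1 and SMAD5 can bind, for GTCT, the short SMAD box, for the E-box CANNTG and for TGACGT, a core of the cAMP response element. No hits of different motifs shared bases. GGCGCC occurred once in the windows of Id2 and Id4 and not in those of Id3 and Smad6, and 9.59% of all 32851 RefSeq windows of this length hold it. GTCT occurred in the windows of Id2, Id3 and Smad6, against 82.9% of all windows, CANNTG in that of Id2, against 66.2%, and TGACGT in none of the 4, against 6.47%. A match says only that the letters are there. The Id2 stretch is cut to the 89 bases outside annotated exons (minus strand, chr12:25096254-25096342), the Id4 window is whole (plus strand, chr13:48260866-48261115), and so is that of Smad6 (minus strand, chr9:64022060-64022309). GENCODE starts the Id4 gene at chr13:48261228, downstream of the RefSeq start that ends its window. The bases after that RefSeq start were not found in a GENCODE transcript of Id4. The Id3 window lies inside an exon of a longer annotated transcript and is not printed. Sequences run 5′ to 3′ on the strand of the gene, with GGCGCC in capitals.
Id2: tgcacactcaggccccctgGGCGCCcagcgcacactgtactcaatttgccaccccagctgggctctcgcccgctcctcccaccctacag
Id4: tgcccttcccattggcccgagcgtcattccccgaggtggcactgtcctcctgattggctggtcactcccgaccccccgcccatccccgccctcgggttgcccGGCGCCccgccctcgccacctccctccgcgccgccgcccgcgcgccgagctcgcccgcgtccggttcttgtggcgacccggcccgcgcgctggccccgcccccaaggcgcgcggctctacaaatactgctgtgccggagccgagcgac
Smad6: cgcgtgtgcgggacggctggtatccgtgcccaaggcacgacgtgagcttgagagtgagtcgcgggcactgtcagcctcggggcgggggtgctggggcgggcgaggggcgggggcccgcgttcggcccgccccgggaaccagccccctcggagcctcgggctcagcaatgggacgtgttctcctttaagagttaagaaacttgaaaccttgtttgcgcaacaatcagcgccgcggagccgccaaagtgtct

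Across the members, the order of levels changed. With IL-1β it was Id3, Id1, Id2, Bmp4, Smad5, Bmpr1a, then Smad1 and Smad6 with overlapping libraries, Bmpr2 and Id4. With the inhibitor, Smad1 and Smad5 followed Id3 and Id1, ahead of Id2 and Bmpr1a, and Bmp4, at a mean of 10.7 TPM, had dropped below Bmpr2. Bmp4 and Smad6 then lay side by side, at 10.1 to 11.9 and 9.76 to 10.1 TPM. Their means were closer than the SD of Bmp4.

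The rest of the pathway was read from lists of 66 further genes, of which 56 are in the table and 41 could be tested. Of the 41, 12 were higher and 23 lower past the adjusted p of 0.05 (85.4%, against 80% of all genes), and 3 were higher and 10 lower by more than 2-fold (31.7%, against 16.6%). The median log2 fold change of these 41 genes was −0.21. These lists too were chosen with earlier results of these data known, so the shares are descriptive. On the log2(TPM + 1) scale the lower genes past 2-fold numbered 5 instead of 10.

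**Figure D4:**
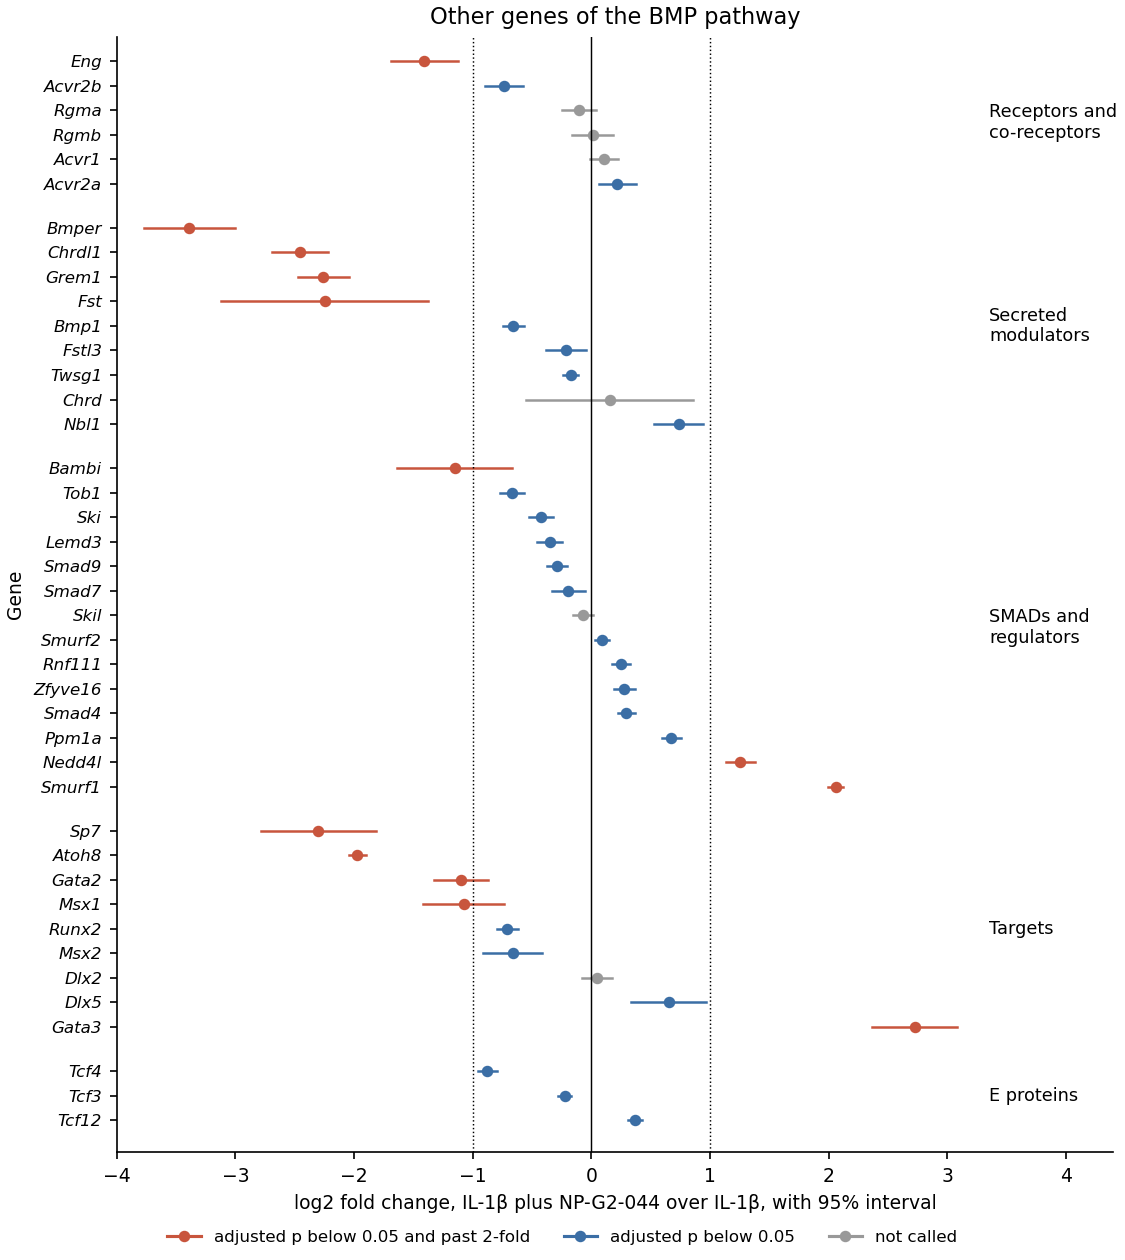
Log2 fold change, inhibitor over IL-1β alone, for the 41 further pathway genes tested, in 5 groups by role, with 95% intervals and dotted lines at 2-fold. Red marks an adjusted p below 0.05 with a change past 2-fold, blue an adjusted p below 0.05 alone, and grey neither; Smurf1, Nedd4l and Gata3 are red on the right.

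Genes of secreted BMP antagonists and modulators were mostly lower. Of 15 genes listed, 12 are in the table and 9 were tested, with 7 lower, 1 higher and 1 not called, where 39.8% of all genes tested were lower, 40.2% higher and the rest not called. Bmper, a BMP-binding modulator, went from 3.04 ± 0.237 to 0.283 ± 0.0289 TPM (SD, n = 3 each), or by −3.39 on the log2 scale. The antagonist Chrdl1 went from 6.74 ± 0.957 to 1.197 ± 0.225 TPM (−2.45), and Grem1, which binds BMP2 and BMP4, from 19.1 ± 1.6 to 3.97 ± 0.458 TPM (−2.26). The inhibitor libraries of Grem1 read 3.46, 4.35 and 4.09 TPM, all under the lowest IL-1β library at 17.96 TPM. Fst, which encodes the activin-binding follistatin, had 42 reads with IL-1β and 9 with the inhibitor, with a ratio of pooled reads of 4.91 and an exact 95% binomial interval of 2.36 to 11.5. In the opposite direction, the DAN family gene Nbl1 rose from 6.65 ± 0.609 to 10.96 ± 0.991 TPM (0.73, SE 0.104). Twsg1, the most abundant of the list, went from 72.1 ± 2.42 to 62.5 ± 1.46 TPM, a log2 fold change of −0.17, and Fstl3 from 12.9 ± 0.176 to 10.9 ± 0.994 TPM, a change of −0.21 (edgeR adjusted p = 0.0242) that was not called without replicate 1 of either group (0.0642 and 0.174) or with DESeq2 (0.0873). Bmp1, which despite its name encodes a protease that cleaves chordin and procollagen, changed by −0.66 from 28.4 ± 1.02 TPM. The Noggin gene, Nog, was below the filter, with 25 reads against 9.

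Of the other receptors and co-receptors, 6 were tested, with 1 higher, 2 lower and 3 not called, a smaller share of calls than the 80% of all genes. Acvr1, the other type I receptor in the table, was at 15.9 ± 1.05 and 16.8 ± 0.539 TPM, with a log2 fold change of 0.11 (95% interval −0.015 to 0.228, edgeR adjusted p = 0.11), which was called without replicate 3 of the IL-1β group (0.0287). It therefore took up 25.9% ± 1.84 of the summed level of Bmpr1a and Acvr1 with IL-1β and 32.5% ± 1.52 with the inhibitor. Eng, which encodes the co-receptor endoglin, fell from 3.15 ± 0.264 to 1.16 ± 0.0839 TPM (−1.41, SE 0.145). Acvr2b changed by −0.74, and Acvr2a by 0.22 (edgeR adjusted p = 0.0109), a rise that 5 of 13 alternatives did not call, among them those without replicate 3 of the IL-1β group (0.0546) or replicate 2 of the inhibitor group (0.111). Of 9 receptor and co-receptor genes listed, 7 are in the table, and Bmpr1b and Acvrl1 are not among them.

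The intracellular regulators went both ways, with 7 of 14 tested genes higher, 6 lower and 1 not called, beside 80% of all genes called. The largest change was that of Smurf1, an E3 ubiquitin ligase known to mark SMAD1 and SMAD5 for degradation. It stood at 29.25, 29.1 and 29.1 TPM in the IL-1β libraries and at 120.85, 119.7 and 116.0 TPM in the inhibitor libraries, a log2 fold change of 2.06 (SE 0.0312, edgeR adjusted p = 2.59e-48). Its paralog Smurf2 was at 61.4 ± 0.568 and 63.9 ± 0.728 TPM, a log2 fold change of 0.09 (edgeR adjusted p = 0.005) that limma did not call on log2(TPM + 0.1) or log2(TPM + 1) (0.136 and 0.135). Smurf1 thus passed from the less to the more abundant of the pair. Nedd4l, a ligase of the same family, rose from 3.56 ± 0.305 to 8.36 ± 0.11 TPM (1.26), and Ppm1a, a phosphatase that acts on SMADs, from 31.8 ± 0.738 to 50.5 ± 2.66 TPM (0.67). Smad4, the common partner, rose from 19.3 ± 0.401 to 23.1 ± 0.436 TPM (0.30), Zfyve16 by 0.28 and Rnf111 by 0.25 on the log2 scale. The decoy receptor gene Bambi fell from 1.83 ± 0.335 to 0.797 ± 0.162 TPM (−1.15), and stayed within 2-fold without replicate 1 of the inhibitor group (−0.98). The repressors Tob1, at −0.67, and Ski, at −0.42, were also lower, as were Lemd3, at −0.35, and Smad9, at −0.29, and Skil was not called, at −0.07 (edgeR adjusted p = 0.115), except without replicate 1 of the IL-1β (0.00856) or the inhibitor group (0.0488).

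Among 12 other genes that BMP signalling is known to induce in one tissue or another, 9 were tested, with 6 lower and 2 higher, beside 39.8% and 40.2% of all genes tested. Atoh8, a helix-loop-helix factor, was at 176.9, 169.4 and 167.7 TPM with IL-1β and at 40.75, 44.8 and 42.7 TPM with the inhibitor (−1.97, SE 0.0375). Its level with IL-1β lay between those of Id1 and Id2, and its fall was larger than that of Id1, Id2, Id3 or Smad6. Sp7, the osteoblast factor osterix, went from 1.76 ± 0.37 to 0.36 ± 0.0794 TPM (−2.30), Gata2 changed by −1.09 and Msx1 by −1.08. Without replicate 3 of the inhibitor group Msx1 stayed within 2-fold, at −0.98. Gata3 rose from 0.523 ± 0.0666 to 3.41 ± 0.402 TPM, a log2 fold change of 2.73, the largest rise in the pathway lists. Exons of Gata3 overlap those of 2 other genes, over 155 bases on the opposite strand and 77 on its own.

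The E proteins that ID proteins bind were abundant. All 3 genes passed the adjusted p of 0.05, 1 higher and 2 lower, beside 80% of all genes tested. All 3 changed by less than 2-fold, where 16.6% of all genes passed the stricter call. Tcf3, which encodes E12 and E47, was at 151.5 ± 0.563 and 126.5 ± 2.08 TPM (SD, n = 3 each), or −0.23 on the log2 scale. Tcf12 rose from 61.7 ± 1.41 to 77.7 ± 1.17 TPM (0.37), and Tcf4, the E protein and not the Wnt effector, fell from 25.0 ± 0.915 to 13.5 ± 0.915 TPM (−0.88). Their summed level lay between 236.2 and 240.4 TPM with IL-1β and between 217.5 and 218.2 TPM with the inhibitor, so that the summed ID transcripts, which fell from 1215 to 452.2 TPM, stayed the more abundant in both groups. These are transcript levels, and protein was not measured here.

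The TGF-β branch, the closest relative of this pathway, was read from 8 genes for comparison. All 8 were tested, 7 were lower and 1 higher, where 80% of all genes tested were called, 39.8% lower and 40.2% higher. Only Tgfb3 passed 2-fold, with a log2 fold change of −1.69, where 16.6% of all genes did. The SMADs of that branch also split, with Smad2 at 0.53 and Smad3 at −0.81. The median over the 8 genes was −0.62, beside −0.99 over the 10 BMP and ID genes, and the difference between the branches was not tested. Outside the lists, the tested genes whose levels over the 6 libraries ran closest to the mean profile of Id2, Id3 and Id4 were Pcdhb16, Herc3 and Cd82, with a root mean square distance of 0.094, 0.108 and 0.111 in gene-centred log2 normalised counts. With 2 groups this likeness mostly reflects a similar fold change, and theirs were −1.72, −1.63 and −1.83. In that mean profile Id4, close to the limit of detection, counted as much as Id2 or Id3. The profile was lowest, at −1.19, in replicate 2 of the inhibitor group, where Id4 had 2 reads.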

How the data were processed

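RNA of ATDC5 cells was sequenced in 6 libraries, 3 per group, and groups and replicate numbers were taken from the sample titles. The authors deposited 1 table with an estimated count per gene, not normalized, and with TPM and FPKM of each library. Their group means in the table were not used. The submitters' processing notes name mm10, cutadapt, HISAT2 2.0 and StringTie, with no role given, and the sources used here name neither the annotation nor the counting tool. Between 10.17% and 11.06% of counts per library were not whole, and all were rounded. Counts were filtered with filterByExpr (minimum count of 10), scaled by TMM and fitted with edgeR 4.0.16 (robust glmQLFit, then glmQLFTest) in R 4.3.3 without covariates, and p-values were adjusted by Benjamini-Hochberg over all 11983 genes tested. Standard errors were taken as the size of the log2 fold change divided by √F. Shares were compared by a two-sided exact permutation test (scipy 1.17.1). Alternatives used DESeq2 1.42.0 and limma 3.58.1. The edgeR fits on all 6 libraries, DESeq2 and limma with a pseudocount of 1 were tested on simulated counts. Limma with a pseudocount of 0.1 and the fits with a library left out were not.

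A positive log2 fold change means a higher level with the inhibitor. Positions and exon overlaps are from GENCODE vM21 (GRCm38, the same build as mm10), and promoters from RefSeq (GRCm38.p6), which held an entry for 9 of the 10 members. The members and the gene lists were chosen with earlier results of these data known. Named were all members, every further pathway gene past 2-fold, and those with a mean of at least 10 TPM in the ligand, receptor, antagonist, SMAD and E-protein lists, beside the 3 nearest genes. Other genes named, among them Nbl1, Nog, Bmp6, Smad7, Acvr2a, Acvr2b and those of the TGF-β branch and the markers, are illustrations picked once values were known. Over 11878 genes whose reads summed to 60 or more, libraries of a group differed by 1.54 to 2.394 times sampling noise, so each was counted as 1 replicate. The study's methods name 3 biological replicates per group, but nothing in the labels says that the cultures were separate. The p-values therefore measure the spread between these libraries, which may be technical. The common dispersion of edgeR gave a coefficient of variation of 2.33% between libraries of a group.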

Additional observations from a re-analysis of the deposited data

How the results depend on the processing

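All 10 members kept their direction and an adjusted p below 0.05 in all 13 alternatives, 130 values in all, with a highest adjusted p of 0.00455, for Bmpr2 with limma on log2(TPM + 1). They used another scaling in edgeR (library size, or size factors of DESeq2), DESeq2 itself, limma on log2(TPM + 1) and log2(TPM + 0.1), no filter, the replicate number as a block and each library left out. The members past 2-fold numbered 5 except with limma on log2(TPM + 1), where Id4 fell short and 4 were left. That pseudocount also lowered the further pathway genes past 2-fold and lower from 10 to 5, and those of all genes from 776 to 514 higher and from 1211 to 802 lower, since it shrinks the fold change of low genes. Leaving out a library gave 785 to 822 higher and 1216 to 1276 lower. Among 637 values of the 49 other genes, 615 kept direction and side of the threshold, 13 lost and 4 gained the call, and 5 changed sign. The sign changes were those of Rgmb, at −0.0338 with limma on log2(TPM + 0.1), −0.0294 on log2(TPM + 1) and between −0.0099 and 0.0491 with a library left out, and of Chrd, between −0.0246 and 0.2556 with a library left out. The main values were 0.01 and 0.16, neither gene was called, and the cause was not tested. Same-numbered libraries did not deviate together (correlations of −0.093, −0.024 and 0.026 over genes), so the numbers were not taken as pairs. With the replicate block, 5 members were past 2-fold, as were 775 higher and 1209 lower of all genes. Shares from FPKM equalled those from TPM within rounding. Depth limits Id4 and the genes under the filter, the other BMP ligands among them.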
